A study of Homo sapiens with 6 samples.

Results

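The genes described here are 5 transcription factors of pancreatic duct cells (SOX9, FOXA2, GATA6, ONECUT2 and KLF5) and 4 simple keratins (KRT8, KRT18, KRT19 and KRT7). They were taken by gene symbol, and each matched 1 of the 58735 genes of the deposited RNA-seq table. The samples were 3 replicates of PANC-1 cells carrying control siRNA (si-NC) and 3 carrying siRNA against METTL16 (si-METTL16), an m6A methyltransferase. PANC-1 is an established human pancreatic ductal adenocarcinoma (PDAC) line and the only line sequenced here, so the values describe 1 cell model. The methods call the transfection of the sequenced cells stable and the replicates biological, and another label names the control cells wild type. Elsewhere the methods describe silencing in PANC-1 by shRNA with puromycin selection of stable cells, so whether siRNA or shRNA was carried is not clear. The text does not say which of the listed METTL16 sequences was used for RNA-seq, nor do the labels tell whether replicates were separate cultures, so p-values measure the spread between these samples. Total counts were 15725298 to 18054436 per sample.

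The lining cells of the pancreatic ducts are simple epithelium, and subtypes of PDAC are told apart partly by the epithelial and foregut genes they express. SOX9 marks the progenitors and adult cells of the ducts. FOXA2 and GATA6 belong to the foregut endoderm program, and GATA6 is known as a marker of the classical PDAC subtype. ONECUT2 is a cut-homeobox factor of liver and pancreas development, and KLF5 is a zinc finger factor of gut and duct epithelium. Keratin filaments are built from pairs of a type I chain with a type II chain. KRT8 (type II) with KRT18 (type I) is the pair of all simple epithelia, and KRT7 (type II) and KRT19 (type I) are added in duct cells.

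Silencing of METTL16 went with lower KRT19, KRT7 and SOX9 and with higher KLF5 and ONECUT2, while GATA6, FOXA2, KRT8 and KRT18 did not pass the test. KRT19 fell to 37.8% and KRT7 to 55.9% of the si-NC level, and KLF5 reached 198% of it. Calls rest on edgeR's quasi-likelihood test over 15089 genes with a Benjamini-Hochberg adjusted p under 0.05. All 9 genes had enough counts to be tested, and 5 of them (55.6%) were called, 2 higher and 3 lower. Of all genes tested, 35.9% were called, 18.4% higher and 17.5% lower. The median log2 fold change was -0.04 over the 9 genes and -0.00449 over all genes tested. The 2 groups of samples lay fully apart for 5 of the 9 genes, against 50.9% of all genes tested. METTL16 itself had 1546, 1641 and 1764 counts in si-NC replicates 1 to 3 and 571, 528 and 627 in si-METTL16 replicates 1 to 3, a log2 fold change of -1.48. In bulk RNA, fewer cells with a transcript and less of it per cell cannot be told apart.

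**Figure D1:**
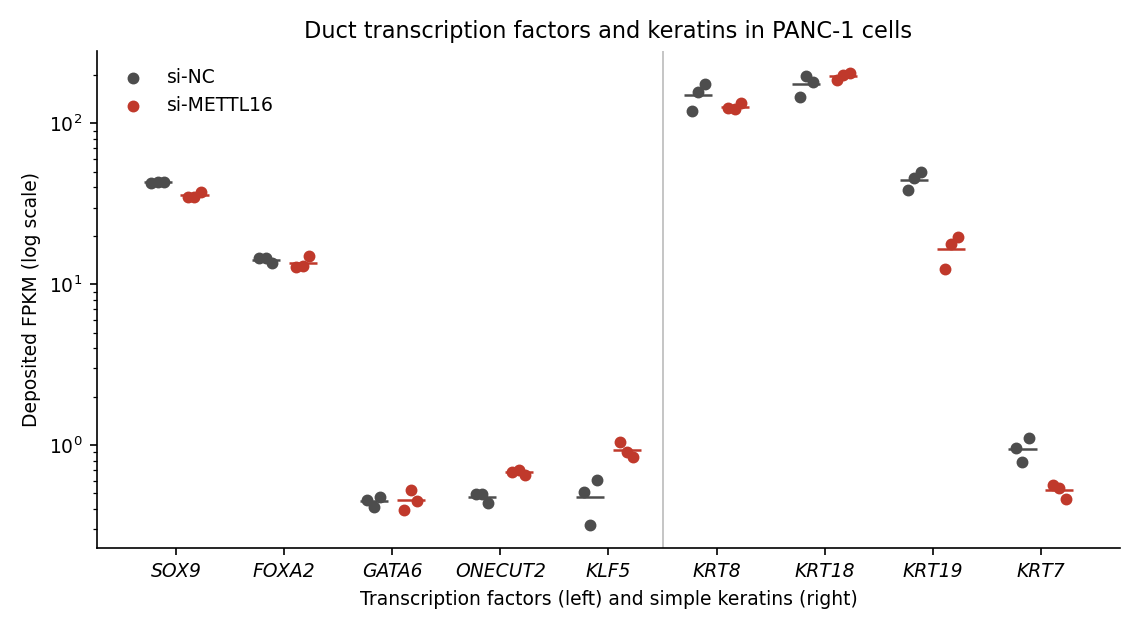
Deposited FPKM (read count scaled by gene length and library total, log axis) of the 5 transcription factors and 4 keratins, with a point per sample and a line at the mean of each group of 3. KRT19 and KRT7 sat lower in every si-METTL16 sample than in every si-NC sample, and KLF5 and ONECUT2 sat higher.

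The 9 genes spanned a wide range of levels. By deposited FPKM, a level per gene length, KRT18 and KRT8 came first in si-NC cells with 175 ± 26.0 and 151 ± 29.0 (SD, n = 3). They ranked between 116 and 204 among all genes in the 6 samples, and together with KRT19 and KRT7 they took 0.284% to 0.393% of all counts. KRT19 (44.8 ± 5.74 FPKM, SD, n = 3) and SOX9 (43.1 ± 0.287) came next in si-NC cells with overlapping samples. FOXA2 followed at 14.2 ± 0.647 FPKM. KRT7 was low, at 0.949 ± 0.158 FPKM, and ONECUT2 (0.478 ± 0.0354), KLF5 (0.477 ± 0.147) and GATA6 (0.447 ± 0.0325) overlapped at the bottom.

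By deposited FPKM the order changed in si-METTL16 cells. SOX9 (34.8 to 37.4 FPKM) then lay above KRT19 (12.4 to 19.7 FPKM), whose range took in the samples of FOXA2 (13.6 ± 1.24 FPKM, SD, n = 3). Among the low genes KLF5 (0.844 to 1.04 FPKM) came first, then ONECUT2 (0.652 to 0.695), then KRT7 (0.463 to 0.563), which overlapped GATA6 (0.394 to 0.524). Part of this order depends on the gene length behind the FPKM. The deposited values imply a length of 6593 bases for KRT18, more than the 4031 bases of its locus in the same table, and of 14233 bases for KRT8. With the MANE Select transcript (1784 bases for KRT8, 1413 for KRT18) as the length, KRT8 stood above KRT18, at 1200 ± 231 against 816 ± 121 on the same scale in si-NC cells. By MANE Select length KRT19 (138 ± 17.6) lay above SOX9 (51.7 ± 0.351) in si-NC cells. In si-METTL16 cells KRT19 (38.3 to 60.6) by this length overlapped SOX9 (41.9 to 44.9) and lay above FOXA2 (13.5 to 15.8). KRT7 (1.98 to 2.40) overlapped KLF5 (1.84 to 2.26) in si-METTL16 cells. KRT7 then lay above ONECUT2 (0.657 to 0.700) in si-METTL16 cells, and ONECUT2 overlapped GATA6 (0.580 to 0.772). In si-NC cells ONECUT2 (0.440 to 0.503) lay below GATA6 (0.605 to 0.697) by this length. Differences of 1 gene between the groups do not depend on its length.

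SOX9, the duct progenitor factor, was the most abundant of the 5 factors and was lower after silencing. The table places it at 72121020 to 72126420 on chromosome 17, and the GENCODE v44 annotation gives the plus strand. It had 3398, 3431 and 3566 counts in si-NC and 2739, 2609 and 3188 in si-METTL16 replicates 1 to 3. In CPM, which scales counts to a common total, the si-NC samples were 201, 202 and 203 and the si-METTL16 samples 167, 167 and 177. The groups did not overlap, and their log2 fold change was -0.25 (SE 0.05, adjusted p = 0.00987 by edgeR). The change was small, to 84.3% of the si-NC level (95% confidence interval 77.5% to 91.8%). The si-NC replicates of SOX9 had a coefficient of variation of 0.577%, the smallest of the 9 genes. That is below the 1.7% that counting error alone gives, so it does not show that SOX9 was unusually stable.

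FOXA2, a pioneer factor of foregut endoderm, and GATA6, the zinc finger factor of classical PDAC, differed by less than the spread between replicates. FOXA2 had 654, 660 and 627 counts in si-NC and 570, 544 and 725 in si-METTL16 replicates 1 to 3. Replicate 3 of si-METTL16 was the highest of the 6 samples and the other two were the lowest. FOXA2 had a log2 fold change of -0.04 (edgeR adjusted p = 0.74), and the interval spans 83.5% to 113% of the si-NC level. GATA6 had 41, 37 and 44 counts in si-NC and 35, 44 and 43 in si-METTL16 replicates. Its log2 fold change was 0.04 (edgeR adjusted p = 0.891) with an interval from 73.3% to 145%. At this depth, counting error alone gives GATA6 a coefficient of variation of 15.7%, so a difference within that interval was not detectable.

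KLF5, the factor of gut and duct epithelium, roughly doubled from a low level. The table places it at 73054976 to 73077542 on chromosome 13, and GENCODE v44 gives the plus strand. It had 62, 39 and 77 counts in si-NC and 126, 104 and 111 in si-METTL16 replicates 1 to 3. In CPM this was 3.67, 2.30 and 4.39 against 7.68, 6.67 and 6.18, so the lowest si-METTL16 sample lay above the highest si-NC sample. This gave a log2 fold change of 0.98 (SE 0.25, adjusted p = 0.0196 by edgeR), with a 95% confidence interval of 132% to 296% of the si-NC level. The si-NC replicates varied by 30.8% (coefficient of variation), more than the 13.0% that counting error gives. Without si-METTL16 replicate 1 or 2, the edgeR adjusted p of KLF5 was 0.0634 or 0.0506.

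ONECUT2, the cut-homeobox factor, rose by a smaller amount and with less spread. It lies on chromosome 18 from 57435685 to 57491297. It had 139, 139 and 126 counts in si-NC and 188, 181 and 195 counts in si-METTL16 replicates 1 to 3. In CPM the si-NC samples (8.23, 8.19 and 7.19) all lay below the si-METTL16 samples (11.5, 11.6 and 10.8). This gave a log2 fold change of 0.52 (SE 0.12, adjusted p = 0.0128 by edgeR), or 144% of the si-NC level with an interval from 119% to 174%.

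The promoters of the 2 factors that rose are shown with that of GATA6, which did not pass the test, so that their letters can be set side by side. The sequences are from RefSeq on GRCh38.p14 and run 5′ to 3′ on the gene's strand, from 250 bases before to 50 bases after the start of the MANE Select transcript. Capitals mark the GC box (GGGCGG), the CCAAT box (CCAAT) and the TATA box (TATAAA), searched on both strands, so that a GC box of the other strand reads CCGCCC. No marked stretch overlaps another.
KLF5, chr13:73058755-73059054, plus strand: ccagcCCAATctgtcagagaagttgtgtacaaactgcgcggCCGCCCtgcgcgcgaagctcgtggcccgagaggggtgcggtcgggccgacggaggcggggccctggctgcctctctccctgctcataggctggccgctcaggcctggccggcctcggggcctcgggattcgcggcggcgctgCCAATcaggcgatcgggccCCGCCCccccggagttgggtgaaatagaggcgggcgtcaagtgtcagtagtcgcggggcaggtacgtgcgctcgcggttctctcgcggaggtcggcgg
ONECUT2, chr18:57435124-57435423, plus strand: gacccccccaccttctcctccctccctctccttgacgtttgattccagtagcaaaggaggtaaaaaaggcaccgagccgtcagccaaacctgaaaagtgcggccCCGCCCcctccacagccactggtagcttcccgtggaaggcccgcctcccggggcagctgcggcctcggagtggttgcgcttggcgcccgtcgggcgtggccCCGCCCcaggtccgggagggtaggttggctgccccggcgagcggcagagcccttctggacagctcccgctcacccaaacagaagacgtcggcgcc
GATA6, chr18:22169339-22169638, plus strand: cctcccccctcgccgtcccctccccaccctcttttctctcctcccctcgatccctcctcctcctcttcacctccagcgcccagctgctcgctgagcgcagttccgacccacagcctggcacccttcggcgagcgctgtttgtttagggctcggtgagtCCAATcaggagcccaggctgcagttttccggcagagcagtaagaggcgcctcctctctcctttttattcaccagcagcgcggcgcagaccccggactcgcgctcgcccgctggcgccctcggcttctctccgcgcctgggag

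The KLF5 promoter holds 2 GC boxes and 2 CCAAT boxes, and the ONECUT2 promoter holds 2 GC boxes. The GATA6 promoter holds 1 CCAAT box and no GC box. None of the 3 holds TATAAA. Of the 35116 promoters of this length in the RefSeq table, 45.0% hold GGGCGG, 34.6% hold CCAAT and 11.5% hold TATAAA. GC content was 71.3% for KLF5, 68.0% for ONECUT2 and 66.7% for GATA6. KLF5 has a further start upstream, at base 73054976 of chromosome 13, whose window holds 1 TATAAA, no GC box and 40.7% GC. The counts are per gene and do not tell these starts apart. SOX9, FOXA2, KRT7, KRT18 and KRT19 were not matched in the promoter table, and KRT8 was matched only at a start 21393 bases from that of its MANE Select transcript.

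**Figure D2:**
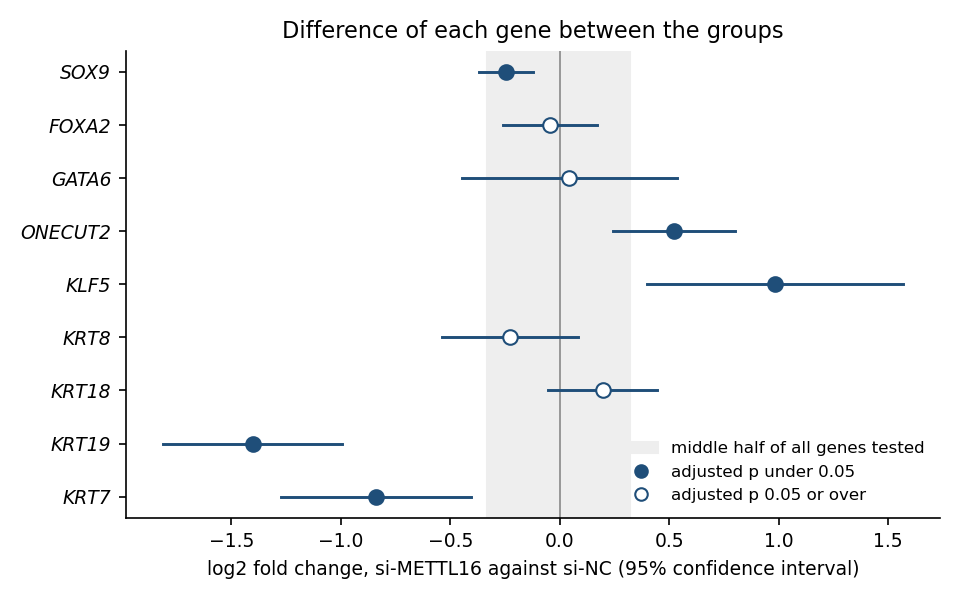
The log2 fold change of each gene, si-METTL16 against si-NC, with its 95% confidence interval from edgeR. Filled points passed the adjusted p of 0.05, and the grey band spans the lower and upper quartile of all genes tested (-0.33 to 0.32). The intervals of SOX9, KRT19 and KRT7 lie below 0 and those of ONECUT2 and KLF5 above it.

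KRT19, the type I keratin added in duct cells, showed the largest difference of the 9 genes. The table places it at 41523617 to 41528308 on chromosome 17, and GENCODE v44 gives the minus strand. It had 2787, 3285 and 3737 counts in the si-NC replicates and 886, 1208 and 1520 counts in the si-METTL16 replicates, in the order 1 to 3. The CPM values were 165, 194 and 213 against 54.0, 77.5 and 84.6, so every si-METTL16 sample lay far below every si-NC sample. The log2 fold change was -1.40 (SE 0.17, adjusted p = 0.00111 by edgeR), with a 95% confidence interval of 28.4% to 50.2% of the si-NC level. The si-METTL16 replicates varied by 22.2%, with replicate 1 the lowest, against 2.88% from counting error. The call was kept under all 16 alternative fits, with log2 fold changes from -1.53 to -1.24.

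KRT7, the type II keratin of ducts, was scarce and also fell. It lies on chromosome 12 from 52232520 to 52252186. It had 112, 92 and 133 counts in si-NC and 65, 59 and 58 in si-METTL16 replicates 1 to 3. In CPM, 6.63, 5.42 and 7.59 stood against 3.96, 3.78 and 3.23, with no overlap. The log2 fold change was -0.84 (SE 0.19, adjusted p = 0.0117 by edgeR), with an interval of 41.3% to 75.6% of the si-NC level. KRT7 shares 282 exon bases with KRT7-AS on the opposite strand, which had 1 count over the 6 samples together.

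KRT8 and KRT18, the pair of all simple epithelia, did not pass the test. KRT8 lies on chromosome 12 from 52897187 to 52949954 on the minus strand, and KRT18 from 52948871 to 52952901 on the plus strand. KRT8 had 28652, 37753 and 43797 counts in si-NC and 29330, 27490 and 34734 in si-METTL16 replicates 1 to 3. Its lowest si-NC sample, replicate 1, was at 1700 CPM, below the 1760 to 1930 CPM of the si-METTL16 samples, while the other two were at 2220 and 2500 CPM. KRT8 had a log2 fold change of -0.23 (edgeR adjusted p = 0.218), with an interval from 68.9% to 106% of the si-NC level. Without si-NC replicate 1 it was -0.38 with an edgeR adjusted p of 0.0112, so 1 library decides this call. KRT18 had 16244, 21991 and 20678 counts in si-NC and 20360, 20835 and 24457 in si-METTL16 replicates 1 to 3, again with si-NC replicate 1 the lowest. Its log2 fold change was 0.20 (edgeR adjusted p = 0.192), with an interval from 96.3% to 136%, and it was 0.08 without si-NC replicate 1 (edgeR adjusted p = 0.4). For both genes the spread between si-NC replicates (19.1% and 14.8%) was far over the 0.522% and 0.714% that counting error gives.

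The 2 loci overlap at their 5′ ends on opposite strands, sharing 1084 bases in the coordinates of the table and 525 exon bases in GENCODE v44, of which 375 lie in the MANE Select transcript of KRT18 and 0 in that of KRT8. Whether counting used strand was not given in the sources used here, so reads of the shared bases cannot be assigned to either gene from these data.

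The balance of the keratins within a sample does not depend on library scaling, and the samples of the groups lay apart in all 4 ratios computed. For single genes, the groups lay apart in 50.9% of all genes tested. KRT19 or KRT7, which each lay apart by themselves, enters every ratio except KRT8 to KRT18. Each ratio was compared by a two-sided exact permutation test on its log2 value, which with 3 against 3 samples cannot give a p below 0.1. The ratio of KRT8 to KRT18 FPKM was 0.817, 0.795 and 0.981 in si-NC and 0.667, 0.611 and 0.658 in si-METTL16 replicates 1 to 3. All si-METTL16 samples lay below all si-NC samples, including the si-NC replicate in which both genes were low. The difference was -0.42 on the log2 scale (SE 0.10, exact p = 0.1), and leaving out a sample gave -0.47 to -0.32.

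KRT19 against KRT18, both type I, had ratios of 0.264, 0.230 and 0.278 in si-NC and 0.067, 0.0893 and 0.0957 in si-METTL16 replicates. The log2 difference was -1.63 (SE 0.18, exact p = 0.1). KRT7 against KRT8, both type II, had ratios of 0.00802, 0.00500 and 0.00623 in si-NC and 0.00455, 0.00440 and 0.00343 in si-METTL16 replicates. The log2 difference was -0.62 (SE 0.24, exact p = 0.1), and the lowest si-NC and the highest si-METTL16 sample lay close together. Relative to the common keratin of its own type, each duct keratin was lower in every si-METTL16 sample than in every si-NC sample.

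Type II against type I FPKM, summed over the 4 keratins, was 0.651, 0.650 and 0.772 in si-NC and 0.628, 0.564 and 0.602 in si-METTL16 replicates, a log2 difference of -0.21 (SE 0.09, exact p = 0.1) that was -0.12 without si-NC replicate 3. The ratio was 0.691 ± 0.0703 and 0.598 ± 0.0326 (SD, n = 3) by deposited FPKM, and its mean was 1.27 and 1.05 by MANE Select length, so which type exceeds the other depends on the length used. The summed FPKM of the 4 keratins overlapped between the groups, at 306, 401 and 408 in si-NC and 322, 342 and 361 in si-METTL16 replicates (log2 difference -0.11, SE 0.14, exact p = 0.5). The sum is sensitive to single samples, with a log2 difference of -0.25 without si-NC replicate 1, -0.05 without si-NC replicate 2, -0.04 without si-NC replicate 3 and -0.07 without si-METTL16 replicate 1. With the 5 comparisons of this kind adjusted together, no p can fall below 0.1. They share keratins and are not independent.

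**Figure D3:**
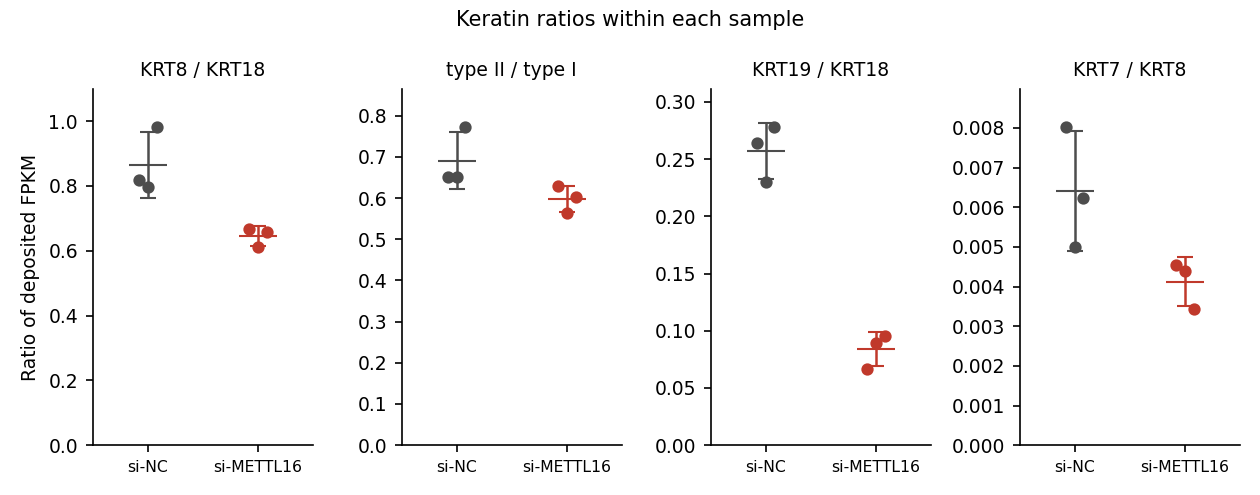
Ratios of deposited FPKM within each sample (linear axes from 0), with a point per sample and the mean and SD of each group of 3. Each si-METTL16 sample lies below each si-NC sample in all 4 ratios, and KRT19 to KRT18 fell from a mean of 0.257 to 0.084.

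Processed pseudogenes of keratins can take reads of their parents. For KRT8, 50 pseudogenes are listed and their summed counts were 4.82% to 5.77% of those of KRT8. For KRT18 the 67 pseudogenes came to 0.546% to 0.646%. For KRT19 they came to at most 0.0828%, and none is listed for KRT7. Adding them to the parent changed no call among the 9 genes. Of the 9 keratin pseudogenes tested, KRT8P3 was lower (log2 fold change -0.38, edgeR adjusted p = 0.0178), where KRT8 was at -0.23 without passing the test. KRT8P3 lost its call without si-NC replicate 2 or 3 or si-METTL16 replicate 1, with edgeR adjusted p values of 0.0509, 0.0599 and 0.0548. KRT8P12 was higher, with 56, 50 and 89 counts in si-NC and 197, 163 and 231 in si-METTL16 replicates (log2 fold change 1.64, edgeR adjusted p = 0.00158). Reads of near-identical copies may be split between them, so these values are uncertain.

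The rest of the keratin family was mostly silent. Of 51 other keratin genes, 17 had no count in any sample and 7 were tested, of which 3 were lower and 0 higher. The share called over all genes tested, 35.9%, stands beside the counts of this list and of those that follow. With no filter on low genes edgeR called 0 of them (3 at an unadjusted p under 0.05), and 0 or 1 were called without any single one of si-NC replicates 1 to 3 or si-METTL16 replicates 2 and 3. KRT15, a keratin of basal cells, had a log2 fold change of -0.89 (edgeR adjusted p = 0.044), and KRT86, a hair keratin, -0.69 (edgeR adjusted p = 0.0324). KRT80, the most counted of the 7, fell by 0.26 on the log2 scale (edgeR adjusted p = 0.0388), which was also the median of the 7. At an unadjusted p under 0.05, 0 of them were higher by edgeR, and DESeq2 and limma called 0 higher.

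Among 13 other intermediate filament genes, 6 were tested, with 2 higher, 0 lower and a median log2 fold change of 0.15. At an unadjusted p under 0.05, 0 were lower by edgeR and 1 by DESeq2. LMNB2, a lamin of the nuclear envelope, and SYNM, a linker of filaments in muscle, were higher by 0.67 and 0.41 on the log2 scale (edgeR adjusted p = 0.000277 and 0.00124). Vimentin (VIM), the filament of mesenchymal cells, had a mean of 184 FPKM in si-NC cells and differed by 0.10 on the log2 scale with an edgeR adjusted p of 0.492.

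The desmosome, to which keratin filaments attach, had genes called in both directions. Of 18 desmosome and keratin linker genes, 14 were tested, with 8 lower, 3 higher and a median of -0.30. Over all genes tested, 17.5% were lower and 18.4% higher. EPPK1 (epiplakin, a keratin-binding plakin) had 71, 88 and 84 counts in si-NC and 38, 35 and 40 in si-METTL16 replicates, a log2 fold change of -1.06 (edgeR adjusted p = 0.00373). The linkers JUP (plakoglobin) and PKP2 (plakophilin 2) had log2 fold changes of -0.59 and -0.48 (edgeR adjusted p = 0.0205 and 0.0171). PKP4, a plakophilin relative, was higher by 0.60 on the log2 scale (edgeR adjusted p = 0.000719). JUP passed the threshold in 12 of its 16 alternative fits, with an adjusted p of up to 0.0634 when a sample was left out.

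Of 25 other duct and foregut lineage factors, 13 had enough counts, with 3 higher, 3 lower and a median of 0.07. Over all genes tested, 35.9% were called. HHEX, a homeobox factor of early foregut, had 132, 163 and 163 counts in si-NC and 350, 338 and 359 in si-METTL16 replicates (log2 fold change 1.24, edgeR adjusted p = 0.000393). GATA4, the relative of GATA6, had 188, 229 and 172 counts in si-NC and 502, 487 and 277 in si-METTL16 replicates (log2 fold change 1.16, edgeR adjusted p = 0.0158). Its 4 fits without si-NC replicate 1 or 3 or si-METTL16 replicate 1 or 2 gave adjusted p values of 0.0505 to 0.0578. PROX1 (-1.03) and CDX2 (-1.03), factors of liver and intestine, were called lower at 7 to 23 counts, with edgeR adjusted p values of 0.038 and 0.0421. CDX2 kept the call in 3 and PROX1 in 4 of 13 alternative fits, and neither did in any fit without a sample. In the list 3 factors were called without si-NC replicate 1, si-METTL16 replicate 1 or si-METTL16 replicate 2. ONECUT3, the relative of ONECUT2, rose by 0.48 and HES1, a Notch target, fell by 0.68 on the log2 scale, but the rule of the 4 largest changes did not choose them. They were named after their values were seen.

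Genes of the classical and basal-like PDAC subtypes were mostly at or near 0 counts. Of 24 classical genes 5 were tested, with 4 called lower, 0 called higher (also at an unadjusted p under 0.05 by edgeR, and by DESeq2 and limma) and a median of -0.91. Over all genes tested, 17.5% were called lower. LGALS4, tested but not called, went the other way at 6 to 14 counts (log2 fold change 0.74, edgeR adjusted p = 0.13). It was named after its values were seen. CEACAM6, a surface adhesion protein, had 188, 161 and 159 counts in si-NC and 40, 56 and 87 in si-METTL16 replicates (log2 fold change -1.44, edgeR adjusted p = 0.00419). TSPAN8, a tetraspanin, and TFF3, a secreted trefoil peptide, had log2 fold changes of -1.24 and -0.91 at 12 to 48 counts (edgeR adjusted p = 0.02 and 0.0491). TFF3 kept its call in 5 of 14 alternative fits. AGR2, an endoplasmic reticulum protein of mucous cells, had a log2 fold change of -0.34 (edgeR adjusted p = 0.0174). Of these 4 genes, 2 were called when si-NC replicate 3 or si-METTL16 replicate 1 or 3 was left out.

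Of 24 basal-like genes 8 were tested, with 3 higher, 3 lower and a median of 0.03, where 35.9% of all genes tested were called. KRT7 is a gene of this list and KRT15 is in it too. DHRS9 and AREG, the latter an EGF receptor ligand, were higher by 1.57 and 1.36 on the log2 scale (edgeR adjusted p = 0.00429 and 0.00428). TNS4, a focal adhesion protein, had a log2 fold change of -0.91 (edgeR adjusted p = 0.0115), and KRT15 was lower as given above. GATA6, the factor by which the classical subtype is often read, was at 35 to 44 counts in every sample.

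**Figure D4:**
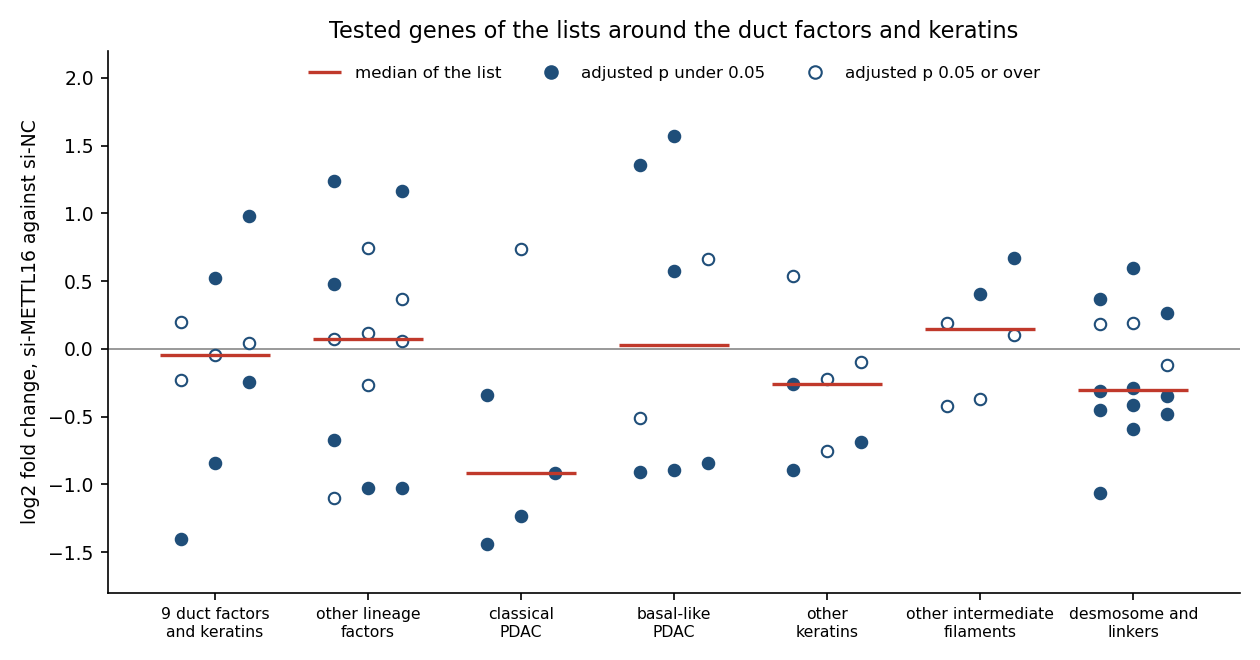
The log2 fold change of each tested gene in the 9 duct factors and keratins and in 6 lists around them. Filled points passed the adjusted p of 0.05, and the red line is the median of the list. The 4 called classical genes lie below 0, and LGALS4, not called, lies above it. The basal-like and lineage lists are split by direction.

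The label of duct cells was set against markers. Of 11 duct markers, 5 were tested (KRT7, KRT19, SOX9, MUC1 and EPCAM), with 3 lower. Those 3 are among the 9 genes above. CFTR, the duct chloride channel, had at most 1 count in any sample, so this defining duct gene was at or near 0. The 11 markers summed to 85.6 to 96.9 in si-NC and 51.5 to 60.2 FPKM in si-METTL16 samples. Most of each sum came from KRT19 (means of 44.8 FPKM in si-NC and 16.7 in si-METTL16) and SOX9 (43.1 and 35.8). The sums therefore repeat the differences of these genes and are no separate check of the label. Of 10 acinar and 10 endocrine markers, 0 were tested, and the sums were at most 0.192 and 0.482 FPKM.

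Some markers of other cells differed between the groups as well, and those tested were all higher. Of 8 fibroblast markers 2 were tested and both were higher, COL1A1 by 1.27 and COL3A1 by 0.69 on the log2 scale (edgeR adjusted p = 9.4e-05 and 0.00731). The list summed to 25.9 to 30.0 FPKM in si-NC and 62.4 to 66.2 FPKM in si-METTL16 samples. The other fibroblast markers were at or near 0, with FAP at 0 in all samples and COL1A2 at no more than 1 count. Of 6 immune and endothelial markers, only CD68, a lysosomal protein of macrophages, was tested. It was higher (log2 fold change 0.67, edgeR adjusted p = 0.00928). PTPRC had too few counts to be tested, at 5, 5 and 5 in si-NC and 0, 0 and 3 in si-METTL16 replicates. CDH5, not tested either, had 3, 11 and 14 against 3, 3 and 6 counts. PECAM1 and VWF had at most 3 counts in any sample, and CD3E was at 0 in all samples. The part of these markers in the differences above was not tested.

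Genes whose pattern over the 6 samples was most like that of a called gene were named by the smallest root mean square difference of log2 CPM, centred on the si-NC mean, among 7545 genes at or above the median level. For SOX9 these were VPS11, PPP1R7 and EMB, at differences of 0.0225 to 0.0246. For ONECUT2 they were SMC5, SMARCC1 and ATF1 (0.0419 to 0.0452), and for KLF5 SMOX, MEX3D and DUSP5 (0.151 to 0.187). KRT7 was most like RAB3D, CHURC1 and IDH1 (0.0529 to 0.108). KRT19 was most like ABHD12, KATNAL1 and BIRC3 (0.150 to 0.174), which had log2 fold changes of -1.32, -1.52 and -1.56. None of the 15 is another of the 9 genes, but genes below the median level were not compared. The called genes also differ from each other in log2 fold change by more than these distances. The measure therefore cannot tell whether the 9 genes vary together.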

How the data were processed

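mRNA of 6 PANC-1 samples was sequenced (SMARTER mRNA-Seq kit, per the labels). The authors deposited raw counts per gene (58735 genes), and FPKM values, which scale the count by gene length and total count. The submitters' processing notes name HISAT2 2.0.4, StringTie 1.3.0 and the GRCh38 (hg38) build. The counting program, annotation release and use of strand are not given in the sources used here. Samples were grouped by their titles. No 2 samples of a group were near-identical.

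The rows of the 9 genes were read from a fit over all genes. Counts were TMM-scaled, filtered with filterByExpr (minimum count 10, minimum total 15) and tested by quasi-likelihood F-test in edgeR 4.0.16 (R 4.3.3). P-values were Benjamini-Hochberg adjusted over 15089 genes. The F statistic and the fold change gave each standard error. Keratin ratios of FPKM were compared by exact permutation in scipy 1.17.1. Alternatives used DESeq2 1.42.0 and limma 3.58.1, the package named in the study's methods. The edgeR, DESeq2 and voom fits were tested on simulated counts. Other alternatives were a replicate block, each sample left out, other filters and scalings, and pseudogene counts added to their parents.

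The 9 genes and the lists around them were chosen with earlier results of these data known. Named in the text are those 9, METTL16, of each list the called genes (at most the 4 largest changes), and the 3 most alike genes for each called gene. Strands, exon overlaps and MANE Select lengths came from GENCODE v44, and promoters from RefSeq (GRCh38.p14). The table's start and end match GENCODE v44 for 3 of the 9 genes. The depth of 15725298 to 18054436 counts puts 3 counts, a floor for counting error only, at 0.1662 to 0.1908 CPM.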

Additional observations from a re-analysis of the deposited data

How the results depend on the processing

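Counting each of the 9 genes in each alternative fit that tested it gave 136 results, of which 133 kept the call. KLF5 lost it without si-METTL16 replicate 1 or 2, and KRT8 gained it without si-NC replicate 1. No direction of a called gene reversed. Leaving out a sample gave 1 to 2 genes called higher and 3 to 4 called lower. With limma on log2(FPKM + 1) or log2(FPKM + 0.1), which left out genes with a mean FPKM under 1, 0 of the 9 were called higher, since KLF5 and ONECUT2 lie below that level. The same 2 fits called 2 classical and 3 basal-like genes. With no filter on low genes, 0 other keratins were called by edgeR (3 at an unadjusted p under 0.05). Leaving out a sample gave 3 to 4 lineage factors and 2 to 3 classical genes called, fewer each time than the 6 and 4 called with all samples, and 0 to 3 other keratins. Calls over all genes fell in these fits too, to between 4159 and 4526 from 5418. The fit with no filter on low genes called 4506 of all genes. The keratin ratios kept their direction in every alternative. For a ratio of 2 genes, library scaling and gene length cancel in the log2 difference, so those alternatives could not change it. The lengths of MANE Select transcripts, chosen after seeing the data, thus left KRT8 to KRT18 at -0.42. They gave -0.27 for type II to type I, which sums genes of unlike length.

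Both groups carry replicate numbers 1 to 3, but same-numbered samples deviated together only weakly, with correlations of 0.0253, 0.0371 and 0.0298, each the highest for its sample. With the replicate number as a block, 2 of the 9 genes were called higher and 3 lower. CDX2, PROX1 and TFF3 lost the call with this block. The ratio of KRT8 to KRT18 had an exact sign-flip p of 0.25, the smallest 3 pairs allow. Its difference of -0.42 is the same paired or not, since the mean of the pairs equals the difference of the group means. Depth limits GATA6, KLF5, KRT7 and ONECUT2, which had at most 195 counts in any sample.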
